A study of Homo sapiens with 2 samples.

Results

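The genes described here are 10 regulators of the passage from G1 into S phase: the D-type cyclin CCND3 and the kinases CDK4 and CDK6, the E-type cyclins CCNE1 and CCNE2 and their kinase CDK2, the phosphatase CDC25A, and the transcription factors E2F1, E2F2 and E2F3. They were chosen by name, and every probe set annotated to 1 of them alone was taken, which gave 27 of the 41091 probe sets with a single gene, and 10 of 19775 genes. A probe set is a group of short probes on the array that together read 1 transcript or a part of it. HCT116, an adherent epithelial line from a human colon carcinoma, was measured on 3′ expression arrays in 2 versions. The first is labelled HCT116-CPEB4, with the genotype CPEB4 over-expressed through a lentiviral system, and the second is labelled HCT116-GFP, with the genotype wildtype. Both were grown in the same serum-containing RPMI-1640 medium, and each gave 1 array. The sources used here do not say whether either line is 1 clone or a pool, which promoter drives the introduced sequence, or how dense and how synchronous the cultures were. With 1 array in each group there is no replicate, so no p-value or standard error exists for any difference, and all comparisons describe these 2 arrays.

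In textbook terms, growth signals raise D-type cyclins, which activate CDK4 and CDK6. These kinases begin to phosphorylate the retinoblastoma protein RB1, which otherwise holds the activator E2Fs (E2F1, E2F2 and E2F3) silent. Freed E2Fs switch on CCNE1, CCNE2, CDC25A, their own genes and the DNA replication machinery, and cyclin E with CDK2 completes the phosphorylation of RB1. CDC25A removes the inhibitory phosphates from CDK2 and so sets how active the cyclin E kinase is. Much of this control lies in protein stability and phosphorylation, which an RNA array does not read.

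Values are the authors' deposited linear intensities, and a difference is always log2 on the array labelled HCT116-CPEB4 minus log2 on the HCT116-GFP array. CPEB4, an RNA-binding protein that regulates poly(A) tails, was itself not higher on the array labelled with it. Its probe sets read 628, 558, 174 and 21.0 on that array, against 731, 758, 183 and 60.1 on the HCT116-GFP array. What part of the transcript these probe sets read was not given, and a probe set outside the introduced sequence would check nothing, so every direction below rests on the labels. Of 9 listed epithelial markers of the line, 8 read above the dim filter explained below on both arrays. VIL1 read 77.0 on the CPEB4-labelled array and 32.2 on the HCT116-GFP array at its brightest probe set. Another VIL1 probe set went the other way, with a difference of −5.60. EPCAM read 20717 on the CPEB4-labelled array and 20994 on the HCT116-GFP array. The intensities of markers of other cell types summed to 1469 and 1100.5 over 5 fibroblast genes, 326 and 386 over 4 blood genes, 121 and 193 over 3 endothelial genes, and 618 and 494 over 3 kidney genes (CPEB4-labelled array first, brightest probe set of each gene). COL1A1 alone made up 1292 and 949 of the fibroblast sums, and its kept probe sets ran from −3.05 to 0.63. The dim filter was passed by 2 of the 5 fibroblast, 2 of the 4 blood, 1 of the 3 endothelial and 3 of the 3 kidney genes. Sums over different probe sets are not amounts of cells and are compared only between the arrays. None of these markers read exactly 0, and their part in the results was not tested. The ratio of 3′ to 5′ signal of ACTB, a measure of RNA integrity and labelling length, was 10.3 on the CPEB4-labelled array and 8.23 on the HCT116-GFP array, that of GAPDH was 1.04 and 0.989, and the part of this difference in the results was not tested.

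Of the 10 genes, CDC25A stood apart with 3.25-fold more signal on the CPEB4-labelled array, CCNE2 followed at 1.67-fold, and the activator E2Fs read 1.19-fold to 1.36-fold higher at their brightest probe sets. CCND3, CCNE1, CDK2, CDK4 and CDK6 lay within 0.30 log2 units of 0 at theirs. Per gene, 7 of the 10 lay above 0 and 3 below, with a median log2 difference of 0.17, beside a median of 0.00 and 50.1% above 0 over all 13704 measured genes. A gene counted as measured when it read at least 60.8 on 1 or both arrays. This limit, here called the dim filter, is the 50th percentile of the intensities. CDC25A was the 1 gene of the 10 past 2-fold, which describes size and is no test. Over all measured genes, 3.55% were higher by 2-fold or more and 3.85% lower. Most of those were dim on 1 array: among genes with both intensities at or above the filter, 0.734% were higher by 2-fold and 0.577% lower, and CDC25A belongs to this smaller class. Since these are RNA extracts of whole cultures, more cells in a phase of the cycle and more RNA per cell cannot be told apart.

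All 27 probe sets can be accounted for. Of them, 17 had both arrays at or above the dim filter, and these ran from −0.20 to 1.70 with a median of 0.25, 12 above 0 and 5 below. A further 2, in CCND3 and E2F1, passed the filter only through the CPEB4-labelled array, so they had to read higher there and are given as values only. The other 8 were under the filter on both arrays and ran from −1.03 to 2.33, 5 above 0 and 3 below. Over all 41091 named probe sets, 49.8% lay above 0. Of the 19 kept probe sets, 3 were higher by 2-fold or more and 0 lower, beside 4.6% higher and 4.48% lower of all kept probe sets, and 2 of those 3 are in the D-cyclin and E2F probe sets that passed through 1 array.

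How far a single probe set can stray without replicates was described from the arrays themselves. The 25010 kept probe sets were split into 4 equal classes by mean log2 intensity. In the dimmest class the central 90% of differences ran from −2.33 to 2.31, and 32.1% of probe sets were past 2-fold in either direction. In the next 3 classes that range narrowed to −0.67 to 0.72, then −0.48 to 0.53, and in the brightest class −0.41 to 0.39. The brightest CDC25A probe set and the brightest CCNE2 probe set lay above this range in their classes, and the other 17 kept probe sets lay inside theirs. The range holds 90% of each class by construction, so 2 of 19 outside it is close to the share over all kept probe sets. The count is therefore no result about these genes. A second measure is the gap between the 2 brightest kept probe sets of a gene, which had a median of 0.27 and a 90th percentile of 1.01 over 6520 genes. Of the 7 G1/S genes with such a pair, CCND3, CDC25A and E2F1 had a gap above that 90th percentile, so their size depends on which probe set is read.

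**Figure D1:**
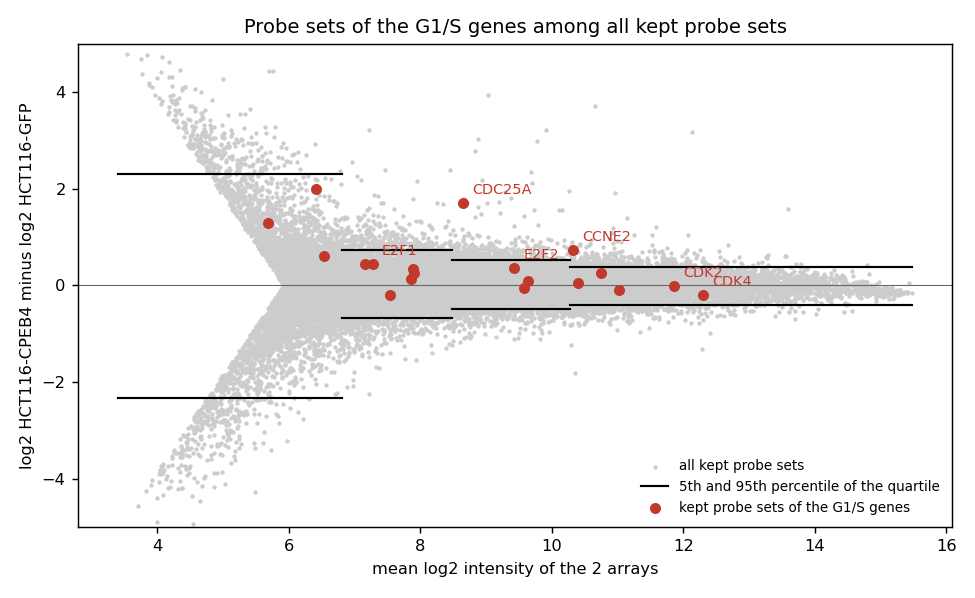
Log2 difference (HCT116-CPEB4 minus HCT116-GFP) against mean log2 intensity for all kept probe sets (grey, of which 5 lie outside the plotted range) and the 19 kept probe sets of the G1/S genes (red). Black lines mark the 5th and 95th percentiles in each class of brightness, which run from −2.33 and 2.31 in the dimmest class to −0.41 and 0.39 in the brightest. Only CDC25A and CCNE2 lie above them, and 2 of 19 outside is close to the share that the lines leave outside by construction.

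The kinases that open the pathway read nearly alike on both arrays. CDK4, which with a D-type cyclin starts the phosphorylation of RB1, has 1 probe set and read 4692 on the CPEB4-labelled array and 5397 on the HCT116-GFP array, a difference of −0.20. CDK6, its close relative, has 7 probe sets. The 2 brightest read 2015 against 2167 (−0.11) and 752 against 779.9 (−0.05). The next pair leaned the other way, at 263 against 221 (0.25) and 267 against 212 (0.33). These 4 kept probe sets of CDK6 therefore straddled 0, and their mean was 0.11, opposite in sign to the brightest of them. Its 3 dim probe sets read 39.5 against 58.1, 15.4 against 31.5 and 7.75 against 5.20, again in both directions.

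CCND3, a D-type cyclin that pairs with either kinase, read 818 on the CPEB4-labelled array against 773 on the HCT116-GFP array at its bright probe set, a difference of 0.08. Its second probe set read 80.8 against 32.7 (1.30), with the HCT116-GFP value under the dim filter, and its class of brightness spans differences of that size. That second probe set was kept only through the array where it read higher, so it gives no support for a direction of CCND3.

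The E-type cyclins differed from each other. CCNE2 read 1652 on the CPEB4-labelled array and 992 on the HCT116-GFP array at its brightest probe set, a difference of 0.74. Its second probe set read 115 against 74.95, a difference of 0.62. The 2 CCNE2 probe sets thus gave nearly the same size, with a gap of 0.12, although the second lies in the dimmest class. CCNE1, which encodes the paralogous cyclin, read 1371 against 1326 (0.05), and its other probe set was close to the bottom of the scale at 3.51 against 6.41. CDK2, the kinase both cyclins activate, read 3720.1 on the CPEB4-labelled array and 3743 on the HCT116-GFP array, a difference of −0.01. Its second kept probe set read 245 against 222 (0.14), and the third was dim at 2.55 against 1.78. CCNE1 has 1 kept probe set, so kept probe sets could be compared only in CCNE2 and CDK2. The second CCNE2 probe set lay inside the range of its class, −2.33 to 2.31, so it adds no support for a direction of CCNE2.

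CDC25A, the phosphatase that activates CDK2, gave the largest difference of the 10 genes at the brightest probe set. It read 726 on the CPEB4-labelled array and 223 on the HCT116-GFP array, a difference of 1.70. In its class of brightness 0.816% of probe sets were past 2-fold in either direction. Its geometric mean intensity of 402 lies near the lower edge of that class, which runs from 359 to 1246. In the next dimmer class 3.15% were past 2-fold. The second CDC25A probe set read 167 against 123, a difference of 0.44 that lies inside the range of its class. The third was under the dim filter on both arrays at 29.5 against 13.6 (1.12). Both kept probe sets lay above 0, and their mean was 1.07, or just past 2-fold. The direction was shared and the size was not, with a gap of 1.26 between the 2 kept probe sets.

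The activator E2Fs read higher on the CPEB4-labelled array at their brightest probe sets, and their kept probe sets lay inside the range of their classes. E2F1 read 181 on that array against 133 on the HCT116-GFP array at its brightest probe set (0.44). Its other probe set read 171 against 42.6 (2.003), with the HCT116-GFP value under the dim filter. Neither value places E2F1 outside its class, and the gap between them was 1.56, the widest of the 7 genes with a pair. E2F2 read 782 against 609 (0.36) at its 1 kept probe set, and its dim probe sets read 52.0 against 10.3 (2.33) and 31.9 against 19.9 (0.68). Those dim probe sets were under the filter on both arrays, so the direction of E2F2 rests on its 1 kept probe set. E2F3 read 1886 against 1579 (0.26) at its brightest probe set and 174 against 199 (−0.19) at the other, so its direction is not settled.

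**Figure D2:**
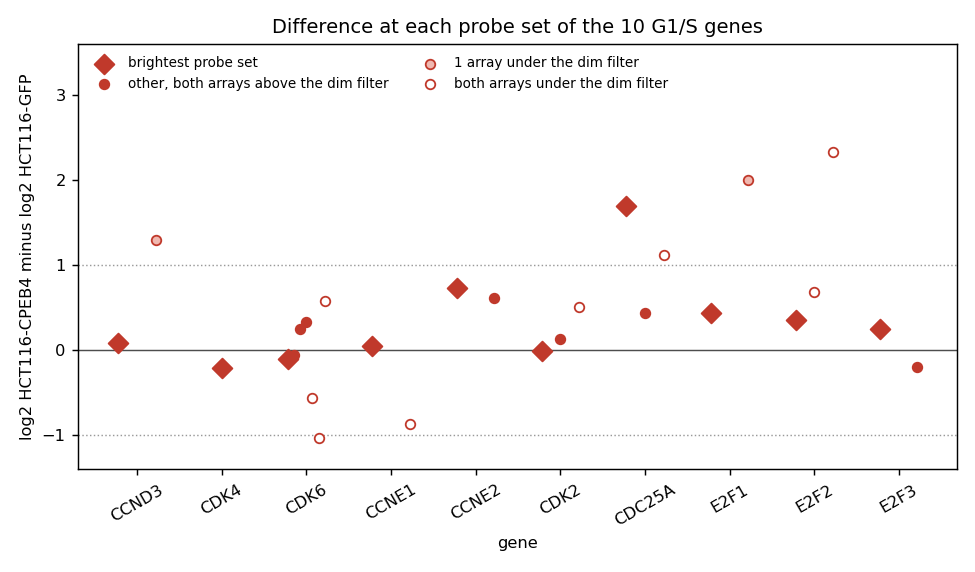
Log2 difference (HCT116-CPEB4 minus HCT116-GFP) of every probe set of the 10 G1/S genes, with the brightest probe set as a diamond, other probe sets as circles and lighter fills for values under the dim filter. Dotted lines mark 2-fold, which the brightest probe set passes in CDC25A (1.70) alone, while CDK2, CDK6, CCNE1 and E2F3 have probe sets on both sides of 0.

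Because E2Fs act through a short GC-rich site, the promoters of these genes were read for it. RefSeq promoter windows on GRCh38.p14 ran from 250 bases before to 50 bases after a start site. They were at hand for 8 of the 10 genes and not for CCNE2 or CDK2, and made 12 windows, since some genes have several starts. Each was searched on both strands for TTCCCGC, for TTGGCGC, for TTCGCGC and for TTGCCGC, 4 spellings of the E2F site in 7 letters, which can overlap one another. CDC25A, E2F1, E2F2 and E2F3 held at least 1 match and CCND3, CCNE1, CDK4 and CDK6 held none. Matches occur in 13.0% of all 35116 windows and in 15.3% of the 27305 genes with a window, and in 23.7% of the 11041 measured genes with a window, the class to which these genes belong. The 100 bases just before the first listed start are shown for the genes with matches, with the matched letters in capitals.
CDC25A, chr3:48188418-48188517, minus strand: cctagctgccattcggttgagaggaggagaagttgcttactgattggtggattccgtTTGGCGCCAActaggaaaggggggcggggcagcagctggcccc
E2F1, chr20:33686386-33686485, minus strand: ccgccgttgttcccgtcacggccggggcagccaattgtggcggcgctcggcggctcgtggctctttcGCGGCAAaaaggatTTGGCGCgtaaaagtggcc
E2F2, chr1:23531234-23531333, minus strand: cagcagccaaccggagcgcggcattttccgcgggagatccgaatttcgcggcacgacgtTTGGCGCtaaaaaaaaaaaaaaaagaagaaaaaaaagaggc
E2F3, chr6:20401779-20401878, plus strand: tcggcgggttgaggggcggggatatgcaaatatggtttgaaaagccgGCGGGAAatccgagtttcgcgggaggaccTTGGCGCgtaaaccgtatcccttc

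The same stretch is shown for CCNE1 and CDK4, whose intensity differed little between the arrays and whose windows hold no match.
CCNE1, chr19:29811891-29811990, plus strand: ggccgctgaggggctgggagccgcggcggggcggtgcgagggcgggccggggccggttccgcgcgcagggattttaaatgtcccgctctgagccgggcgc
CDK4, chr12:57752311-57752410, minus strand: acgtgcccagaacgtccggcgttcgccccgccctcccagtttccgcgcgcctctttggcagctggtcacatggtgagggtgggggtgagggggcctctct

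TTGGCGC occurs in all 4 genes with a match. In CDC25A it starts 43 bases before the start site and overlaps its own reverse complement, which counts as a second match. In E2F1 the matches begin 33 and 19 bases before the start, in E2F2 41 bases, and in E2F3 53 and 24 bases. A match describes letters only. CCNE1 is an E2F target in the textbook account, and the absence of these 4 spellings from its window says nothing about the factor.

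The brakes of the pathway were read from lists of related genes. Of 6 measured CDK inhibitors, 3 lay above 0 and 3 below, with a median of 0.04 and 0 past 2-fold. Over all measured genes 50.1% lay above 0, 3.55% were higher by 2-fold or more and 3.85% lower. In so small a list 0 past 2-fold is therefore no result about its genes, and the same holds for the lists below. CDKN1A (p21) read 6149 on the CPEB4-labelled array against 5642 on the HCT116-GFP array, and CDKN1B (p27) 3762 against 3412, differences of 0.12 and 0.14. CDKN1C (p57) was the 1 inhibitor that stood away from 0, at 1896 against 2956 (−0.64) at its brightest probe set. Its 4 kept probe sets ran from −1.12 to −0.41, all lower on the CPEB4-labelled array. The INK4 inhibitors of CDK4 and CDK6 read −0.04 for CDKN2A, −0.04 for CDKN2B and 0.18 for CDKN2D.

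The partners and opponents of the activator E2Fs gave a mixed picture, with 6 of 10 genes above 0, a median of 0.04 and 0 past 2-fold. RB1 read 2986 on the CPEB4-labelled array against 2730.2 on the HCT116-GFP array (0.13), with −0.23 at a dimmer probe set. RBL1 (p107), an RB relative, read 451 against 246 (0.87), but its second kept probe set read 79.5 against 82.3 (−0.05). RBL2 (p130), another relative, differed by −0.12. The E2Fs that work mainly as repressors with p107 and p130 read lower at their brightest probe sets, E2F5 at 253 against 456 (−0.85) and E2F4 at 428 against 721 (−0.75), where a second E2F4 probe set gave 0.08. E2F8, an atypical E2F that acts as a repressor, read 1217 against 915 (0.41), while E2F7 (0.08) and E2F6 (0.07) lay near 0. The dimerisation partners TFDP1 and TFDP2 differed by 0.01 and −0.14, and the further kept probe sets of TFDP1 read 2852 against 2398 (0.25) and 33.0 against 138 (−2.07, with the first value under the dim filter).

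Other cyclins, CDC25 phosphatases and CDK regulators had 7 of 16 genes above 0 and 9 below, a median of −0.03, and 0 past 2-fold. Their 3 brightest were the ubiquitin ligase subunit SKP1 (−0.02, with other kept probe sets up to 0.31), the transcription factor MYC (−0.32) and the CDK-binding protein CKS1B (−0.14). The genes of the same families as the 10 were picked out after their values were seen. The CDC25A paralogues that act mainly at mitosis read lower, CDC25B at 3673 on the CPEB4-labelled array against 5128 on the HCT116-GFP array (−0.48) and CDC25C at 701 against 817 (−0.22). CCND1, another D-type cyclin, read 7067 against 6098 (0.21), with 0.64 at its second probe set, and CCND2 read 80.9 against 79.3 (0.03).

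Downstream, the E2F target genes of DNA replication leaned one way, in a list written with earlier results of these data known. The lean is thus a description and no independent support. Of 24 measured genes, 20 lay above 0 and 4 below, beside 50.1% above 0 over all measured genes. At the brightest probe sets the median was 0.23 (1.17-fold), the range was −0.18 to 0.83 and 0 genes were past 2-fold. Other kept probe sets read 1.10 and −0.58 in GINS2, and up to 1.07 in CHAF1A, both named after their values were seen. In 17 of the 24 every kept probe set lay above 0, beside 37.7% of all measured genes. The 3 brightest were the thymidylate synthase TYMS at 17154 on the CPEB4-labelled array against 15327 on the HCT116-GFP array (0.16), the ribonucleotide reductase subunit RRM2 at 16409 against 13112 (0.32), and the sliding clamp PCNA, whose difference was −0.00. ORC1 (−0.18), MCM2 (−0.09) and RRM1 (−0.01) were the other 3 below 0, named after their values were seen. Among the helicase subunits MCM2 to MCM7, also singled out afterwards, 5 of 6 lay above 0, from 0.19 in MCM7 to 0.60 in MCM5. The other kept probe set of MCM7 read −0.10. Of the 22 genes of this list with a promoter window, 20 (90.9%) held 1 of the 4 E2F spellings, against the 23.7% of measured genes given above. The genes were listed as E2F targets, so a high share follows from that choice and is no result of these arrays.

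Genes of G2 and mitosis, set beside these as the next step of the cycle, had 9 of 18 above 0 and 9 below, a median of −0.04 and 0 past 2-fold. Their 3 brightest were CDK1 at 10359 against 15128 (−0.55, with other probe sets up to 0.14), CCNB1 (0.22, with −0.16 at its other kept probe set) and UBE2C (−0.11). Of the 14 G2/M genes with a promoter window, 2 held an E2F spelling. CCNA2, the cyclin that takes over CDK2 in S phase and stands in both the cyclin and the E2F target lists, was named after its values were seen and read 4239 on the CPEB4-labelled array against 3798 on the HCT116-GFP array (0.16).

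**Figure D3:**
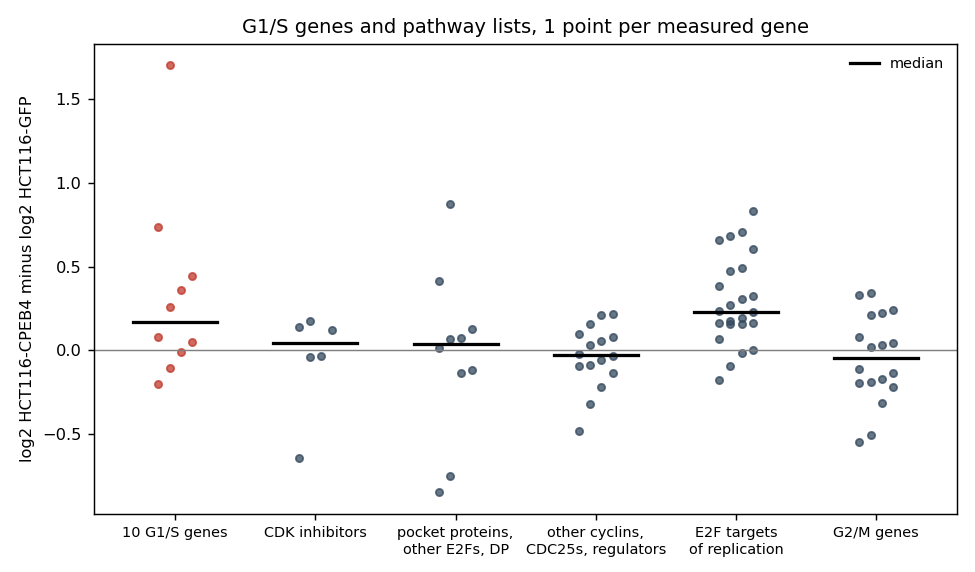
Log2 difference (HCT116-CPEB4 minus HCT116-GFP) at the brightest kept probe set of each of the 10 G1/S genes and of each measured gene in the 5 pathway lists, with the median as a bar. The E2F targets of replication have a median of 0.23 with 20 of 24 genes above 0, beside 50.1% of all measured genes. The other lists have medians between −0.04 and 0.04, and all lists were written with earlier results of these data known.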

How the data were processed

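Total RNA of each culture was labelled with biotin and hybridised to 1 array, per the labels' protocols. The authors' deposited table holds 1 linear intensity per probe set and array (54675 probe sets). Per the submitters' processing notes Partek was among the tools, with no role or version. The sources used here do not say how probes were summarised, corrected for background or scaled. Both arrays have a trimmed mean of 500.1 after 2% was removed at each end.

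Probe sets were named through the platform annotation, with symbols updated by Entrez identifier to RefSeq (GRCh38.p14, names only). Of these, 41097 have 1 gene, 1801 several and 11777 are unnamed here, and control probe sets were left out. 41043 matched RefSeq. The log2 was taken without a pseudocount. Probe sets were kept if the higher intensity reached 60.8, and each gene took the brightest of its kept probe sets by mean log2 intensity. Of the columns of values, 0 were left unused. No test was run, since each group has 1 array, which limits the precision of every value.

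The 10 genes and all lists were chosen with earlier results of these data known. Named are all 10 genes, CPEB4, all measured CDK inhibitors, pocket proteins, E2Fs and DP partners, and of each other pathway list the 3 brightest genes and any past 2-fold. Genes named outside this rule, markers included, were chosen after their values were seen. Some listed genes are not analysed here. Alternatives were quantile, median and lowess scaling, 3 other dim filters, a pseudocount of 50, the mean over probe sets, and the removal of probe sets with possible cross-hybridisation. The procedure was tested on simulated data. Python 3.11.15, pandas 2.3.3 and statsmodels 0.14.6 were used.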

Additional observations from a re-analysis of the deposited data

How the results depend on the processing

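Across 9 alternatives CDC25A stayed past 2-fold, between 1.07 (mean over probe sets) and 1.71, CCNE2 between 0.68 and 0.74, and the median of the 10 G1/S genes between 0.08 and 0.23. Every alternative but the mean over probe sets read CDC25A and CCNE2 at the same brightest probe set. Their steadiness was thus built in and adds no support. The number of G1/S genes past 2-fold was 2 in place of 1 when probe sets were averaged, and also 2 without the _x_at and _s_at probe sets, whose IDs mark possible cross-hybridisation or shared transcripts. CDK4 and E2F3 then have no value, and E2F1 has none under the stricter filter. The second gene was E2F1 both times, at 1.22 and 2.003, by construction since its dimmer probe set then enters. With the mean over probe sets CCND3 was 0.69, CDK6 0.11 and CDK2 0.06, the last 2 with the sign turned. Genes higher by 2-fold over the whole array numbered 487, against 1761 without the dim filter, 89 with both arrays above it, 40 under the stricter filter of 377 and 167 with the pseudocount. Those lower numbered 527, against 1875, 70, 14 and 165 in the same order, and 4247 genes lay above 0 under the stricter filter, which tests fewer genes. The list medians near 0 changed sign in 1 alternative each: −0.027 for CDK inhibitors and 0.10 for other cyclins without the _x_at and _s_at probe sets, −0.043 for pocket proteins and other E2Fs with the mean over probe sets, and 0.020 for G2/M genes under the stricter filter. Those alternatives left values for 4 of the 6 CDK inhibitors, 7 of the 16 other cyclins and 17 of the 18 G2/M genes. The list of pocket proteins and other E2Fs kept all 10. The part of the lost genes in these sign changes was not tested. The E2F target median stayed between 0.22 and 0.27. No paired analysis was possible because each group has 1 array, and no replicate could be left out for the same reason.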

Other observations

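Over all measured genes with a RefSeq promoter window, those with 1 of the 4 E2F spellings had a median log2 difference of 0.02, with 53.2% of 2615 genes above 0, and those without had −0.01, with 49.2% of 8426 above 0. Of the 2615 genes with a match 71 were higher and 58 lower by 2-fold or more. Of the 8426 without a match 286 were higher and 319 lower. Over all measured genes, with or without a window, 3.55% were higher and 3.85% lower. The groups differ in size, so their counts are not directly comparable. Among the lists, 4 of 8 pocket protein and E2F genes, 5 of 12 other cyclins and regulators and 1 of 6 CDK inhibitors with a window held a match. Several dim probe sets of related genes gave large differences that their brighter probe sets do not share, for example (chosen after their values were seen) CCND2 at 51.4 on the CPEB4-labelled array against 7.55 on the HCT116-GFP array and CDC25C at 10.8 against 40.6.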
